A study of Mus musculus with 15 samples.

Results

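The 10 genes described here encode interleukins that myeloid cells make, *Il1a*, *Il1b*, *Il1rn*, *Il6*, *Il10*, *Il12b*, *Il15*, *Il18*, *Il27* and *Il16*. They were taken by gene symbol from the 30884 genes that carry a symbol of their own on the arrays, and each of the 10 was found with 1 transcript cluster. Each cluster summarises 14 to 38 probes over a whole gene. *Il1a*, *Il1b* and *Il1rn* lie on chromosome 2, *Il6* on 5, *Il10* on 1, *Il12b* on 11, *Il15* on 8, *Il18* on 9 and *Il27* and *Il16* on 7. Sorted microglia of 15 adult mice were profiled, each mouse on its own Affymetrix Mouse Gene 2.0 ST array, and the values are log2 signals, so that a difference of 1 is a doubling. All mice were C57BL/6 littermates with floxed *Tgfbr2* alleles and the *R26-yfp* reporter. The 6 Cre/+ TAM mice carried *Cx3cr1CreERT2* and were injected with 8 mg tamoxifen in corn oil, a dose given at 2 time points 48 h apart, which deletes the *Tgfbr2* exons for the ligand-binding part of the receptor. The 6 wt TAM mice lacked the Cre allele and received the same tamoxifen, and the 3 Cre/+ OIL mice carried *Cx3cr1CreERT2* and were injected with oil without tamoxifen. Cre/+ TAM thus differed from wt TAM in the *Cx3cr1CreERT2* allele as well as in *Tgfbr2*, and from Cre/+ OIL in tamoxifen as well. Effects of the allele or of tamoxifen cannot be told apart from those of the deletion in either comparison alone. Injections were at 6 to 8 weeks of age and microglia were isolated 4 weeks later. Cre sits in the *Cx3cr1* locus, so that other macrophages and monocytes that use *Cx3cr1* can recombine as well, and not every microglial cell need recombine. The labels give a CD11b+/CD45low sort for all groups, while the methods of the study gate the Cre/+ TAM cells as YFP+/CD45low. In bulk RNA, fewer cells of a type and less RNA per cell cannot be told apart.

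The interleukin 1 family holds agonists, made here from *Il1a*, *Il1b* and *Il18*, and the receptor antagonist made from *Il1rn*. Pro-IL-1β and pro-IL-18 are cut by caspase-1 in the inflammasome, so that mRNA and released cytokine are set separately, while IL-1α is already active as a precursor and is released by damaged cells. IL-6 signals through IL-6Rα and gp130, IL-12p40 pairs with other chains to form IL-12 and IL-23, IL-27p28 pairs with EBI3, IL-15 is presented on IL-15Rα, and IL-10 restrains macrophage activation. TGFβ is known to restrain cytokine production by macrophages. The question was whether microglia without the ligand-binding part of *Tgfbr2* differed in the mRNA of these cytokines.

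Windows of 250 bases upstream of the annotated start are given for *Il6*, *Il1a* and *Il1b*, shown because *Il6* set the Cre/+ TAM arrays apart from the wt TAM arrays and *Il1a* and *Il1b* had the widest spread among members with an entry in the RefSeq promoter table (GRCm38.p6), which held 7 of the 10 members. The window of *Il6* lies on the + strand at chr5:30012864-30013113, that of *Il1a* on the - strand at chr2:129309973-129310222 and that of *Il1b* on the - strand at chr2:129371140-129371389. *Il1a* and *Il1b* are neighbours on chromosome 2. Capitals mark matches, on either strand, to a κB motif (GGG, 5 unspecified bases, CC), an AP-1 motif (TGANTCA) and a C/EBP motif (TTNNGNAA), in which overlapping matches run together.
Il6: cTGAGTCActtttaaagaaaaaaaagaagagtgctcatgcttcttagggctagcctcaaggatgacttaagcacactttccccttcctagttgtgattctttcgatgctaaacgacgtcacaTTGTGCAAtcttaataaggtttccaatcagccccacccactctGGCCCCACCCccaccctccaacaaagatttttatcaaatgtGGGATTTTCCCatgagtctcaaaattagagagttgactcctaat
Il1a: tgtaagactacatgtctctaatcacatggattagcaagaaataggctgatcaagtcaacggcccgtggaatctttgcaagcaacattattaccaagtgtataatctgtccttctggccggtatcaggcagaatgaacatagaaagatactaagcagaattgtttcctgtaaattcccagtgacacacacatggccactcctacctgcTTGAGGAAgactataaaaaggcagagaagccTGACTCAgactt
Il1b: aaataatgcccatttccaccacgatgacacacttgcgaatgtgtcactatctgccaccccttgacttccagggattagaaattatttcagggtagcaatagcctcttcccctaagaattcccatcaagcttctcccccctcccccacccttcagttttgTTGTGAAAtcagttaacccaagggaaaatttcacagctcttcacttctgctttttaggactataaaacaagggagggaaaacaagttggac
The *Il6* window held an AP-1 match 249 to 243 bases before the start, a C/EBP match 128 to 121 bases before it, and κB matches 85 to 76 bases and, on both strands and overlapping, 44 to 34 bases before it. The *Il1a* window held an AP-1 match 12 to 6 bases and a C/EBP match 43 to 36 bases before the start, and the *Il1b* window a C/EBP match 91 to 84 bases before it. Of 32851 windows of this length in the table, 6.75% held an AP-1 match, 45.8% a κB match and 36.8% a C/EBP match, so that only the AP-1 letters are uncommon. Among the other members, a window of *Il1rn* (141 to 135 bases before the start) and a window of *Il16* (18 to 12 bases) also held an AP-1 match. The *Il18* and *Il12b* windows held no match to any of the 3 motifs. A Smad box (CAGAC) and a PU.1 motif (GAGGAA), not marked here, were in 42.2% and 23.3% of all windows. Of the windows printed only that of *Il1a* held them, 7 to 3 and 41 to 36 bases before the start. A match is a stretch of letters and was not tested as a binding site.

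The targeted gene, *Tgfbr2*, lay between 7.91 and 8.36 in Cre/+ TAM, 7.91 and 8.26 in wt TAM and 7.94 and 8.49 in Cre/+ OIL, with a log2 difference of 0.02 between Cre/+ TAM and wt TAM (limma adjusted p = 0.992). The groups overlapped, and since 1 value stands for the whole gene and the deletion removes only some exons, this signal does not check the labels.

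None of the 10 members was called between any of the groups at an adjusted p under 0.05 (limma with Benjamini-Hochberg adjustment over 32471 transcript clusters). *Il6* was the only member past an unadjusted p of 0.05. Against wt TAM, 6 members had a higher and 4 a lower mean in Cre/+ TAM, with a median log2 difference of 0.09 against -0.02 over all clusters. The background was low as well, since 8 clusters (0.0246%) were called for Cre/+ TAM against wt TAM, 0 (0.0%) for Cre/+ TAM against Cre/+ OIL and 0 (0.0%) for wt TAM against Cre/+ OIL. At an unadjusted p under 0.05 these shares were 5.83%, 5.84% and 5.22%, with 1, 0 and 0 of the 10 members past it.

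*Il6* had log2 signals of 6.37, 6.33, 6.41, 7.37, 6.58 and 6.70 in Cre/+ TAM replicates 1 to 6 and of 6.22, 5.67, 6.09, 5.89, 6.12 and 6.28 in wt TAM replicates 1 to 6. In Cre/+ OIL replicates 1 to 3 it had 6.20, 6.45 and 6.33. All 6 Cre/+ TAM arrays lay above all 6 wt TAM arrays, which 0.317% of all clusters also did, whereas 3 of the 6 lay above all 3 Cre/+ OIL arrays. The mean of 6.63 ± 0.39 in Cre/+ TAM was 0.58 above the 6.05 ± 0.23 in wt TAM (SD, n = 6 each), a fold of 1.49 with a 95% interval of the log2 difference of 0.25 to 0.91. The exact permutation test gave p = 0.00216 (two-sided), the smallest that 6 against 6 arrays can give. In limma the unadjusted p was 0.00193 and the adjusted p 0.383, so that the difference did not pass the test over all clusters. Against Cre/+ OIL (6.33 ± 0.13, SD, n = 3) the log2 difference of Cre/+ TAM was 0.30 (limma adjusted p = 0.897), and that of wt TAM was -0.28 (limma adjusted p = 0.949). The wt TAM mice lack the *Cx3cr1CreERT2* allele, so that the allele and the deletion cannot be told apart in the difference from wt TAM. Without Cre/+ TAM replicate 4, the array with the highest signal, the log2 difference from wt TAM was 0.43 (limma adjusted p = 0.443).

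*Il1a*, which encodes IL-1α, spread widely in every group. Its log2 signals were 10.08, 10.60, 9.47, 9.38, 9.12 and 9.63 in Cre/+ TAM replicates 1 to 6 and 9.98, 9.60, 8.54, 8.82, 9.58 and 8.88 in wt TAM replicates 1 to 6. They were 8.69, 9.24 and 10.25 in Cre/+ OIL replicates 1 to 3. The groups overlapped, and the mean was 9.71 ± 0.54 in Cre/+ TAM (SD, n = 6), 9.23 ± 0.56 in wt TAM (SD, n = 6) and 9.39 ± 0.79 in Cre/+ OIL (SD, n = 3). The log2 difference between Cre/+ TAM and wt TAM was 0.48 (95% interval -0.15 to 1.11, limma adjusted p = 0.898) and was 0.17 without Cre/+ TAM replicates 1 and 2, the pair with the highest *Il1a* of that group.

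*Il1b*, the gene of IL-1β, had log2 signals of 6.52, 5.37, 4.66, 4.72, 4.55 and 4.62 in Cre/+ TAM replicates 1 to 6. In wt TAM replicates 1 to 6 the signals were 4.89, 4.62, 3.93, 3.45, 4.80 and 4.86, and in Cre/+ OIL replicates 1 to 3 they were 4.44, 4.98 and 4.66. Only Cre/+ TAM replicates 1 and 2 lay above all arrays of both control groups, and the remaining 4 lay within the wt TAM range. The log2 difference between Cre/+ TAM and wt TAM was 0.65 (95% interval -0.02 to 1.31, limma adjusted p = 0.864). It was 0.36 without Cre/+ TAM replicate 1 and 0.21 without replicates 1 and 2. The difference from Cre/+ OIL was 0.38 on the log2 scale (limma adjusted p = 0.939) and -0.06 without those arrays. Outside Cre/+ TAM replicates 1 and 2, *Il1b* signals lay near or below the array medians of 4.35 to 4.55, where low signals cannot be told from background.

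*Il1rn*, which encodes the antagonist of both IL-1 agonists, varied little. It ranged between 4.23 and 4.69 in Cre/+ TAM (median 4.31), between 3.82 and 4.45 in wt TAM (median 4.31) and between 4.10 and 4.55 in Cre/+ OIL. The log2 difference between Cre/+ TAM and wt TAM was 0.14 with a 95% interval of -0.12 to 0.40.

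*Il18* was the member with the lowest log2 difference between Cre/+ TAM and wt TAM. Its log2 signals were 7.62, 7.65, 8.04, 8.01, 8.02 and 7.80 in Cre/+ TAM replicates 1 to 6 and 8.01, 8.64, 8.46, 7.82, 7.78 and 8.21 in wt TAM replicates 1 to 6. In Cre/+ OIL replicates 1 to 3 they were 8.54, 8.17 and 7.58. Of the 6 Cre/+ TAM arrays, replicates 1 and 2 lay below every wt TAM array and the other 4 inside their range. The log2 difference was -0.30 (95% interval -0.66 to 0.06, limma adjusted p = 0.876) against wt TAM and -0.24 (limma adjusted p = 0.916) against Cre/+ OIL. The value against Cre/+ OIL depended on single control arrays, at -0.02 without Cre/+ OIL replicate 1 and -0.50 without Cre/+ OIL replicate 3 (limma adjusted p = 0.432).

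*Il10*, an interleukin that dampens macrophage activation, stood high on a single array. It had log2 signals of 6.48, 3.73, 2.95, 3.22, 3.01 and 3.06 in Cre/+ TAM replicates 1 to 6, and between 2.62 and 3.47 in wt TAM (median 2.89). In Cre/+ OIL replicates 1 to 3 it had 2.93, 2.51 and 2.84. Cre/+ TAM replicate 1 stood far above the next array of its group, and the remaining arrays of the group lay close to or within the range of wt TAM. The log2 difference from wt TAM was 0.80 (95% interval -0.14 to 1.74, limma adjusted p = 0.876), was 0.25 without Cre/+ TAM replicate 1 and was 0.12 without replicates 1 and 2. All 6 Cre/+ TAM arrays lay above all 3 Cre/+ OIL arrays, which 1.44% of all clusters also did, with a log2 difference of 0.98 (limma adjusted p = 0.871) that was 0.30 without replicates 1 and 2.

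The remaining members were close to level across the groups. *Il12b*, the gene of the p40 chain, averaged 3.97 ± 0.26 in Cre/+ TAM, 4.09 ± 0.21 in wt TAM and 3.97 ± 0.04 in Cre/+ OIL (SD, n = 6, 6 and 3). *Il15*, whose product supports NK and memory T cells, averaged 7.01 ± 0.03 in Cre/+ TAM, 6.98 ± 0.10 in wt TAM and 7.02 ± 0.27 in Cre/+ OIL. All 6 Cre/+ TAM arrays lay between 6.96 and 7.06 for *Il15*, the narrowest spread of any member in that group. *Il27*, the gene of the p28 chain, averaged 6.10 ± 0.15 in Cre/+ TAM, 6.15 ± 0.14 in wt TAM and 6.09 ± 0.18 in Cre/+ OIL. *Il16*, which encodes a CD4-binding chemoattractant, averaged 5.35 ± 0.11 in Cre/+ TAM, 5.44 ± 0.09 in wt TAM and 5.41 ± 0.13 in Cre/+ OIL. For Cre/+ TAM against wt TAM the 95% intervals of the log2 difference ran between -0.39 and 0.14 for *Il12b*, between -0.16 and 0.22 for *Il15*, between -0.26 and 0.16 for *Il27* and between -0.27 and 0.08 for *Il16*. These intervals are of the signal, and *Il12b* and *Il1rn*, like *Il10*, lay below the median signal of all clusters, where a signal cannot be told from background, so that their intervals set no limit on a change in mRNA.

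**Figure D1:**
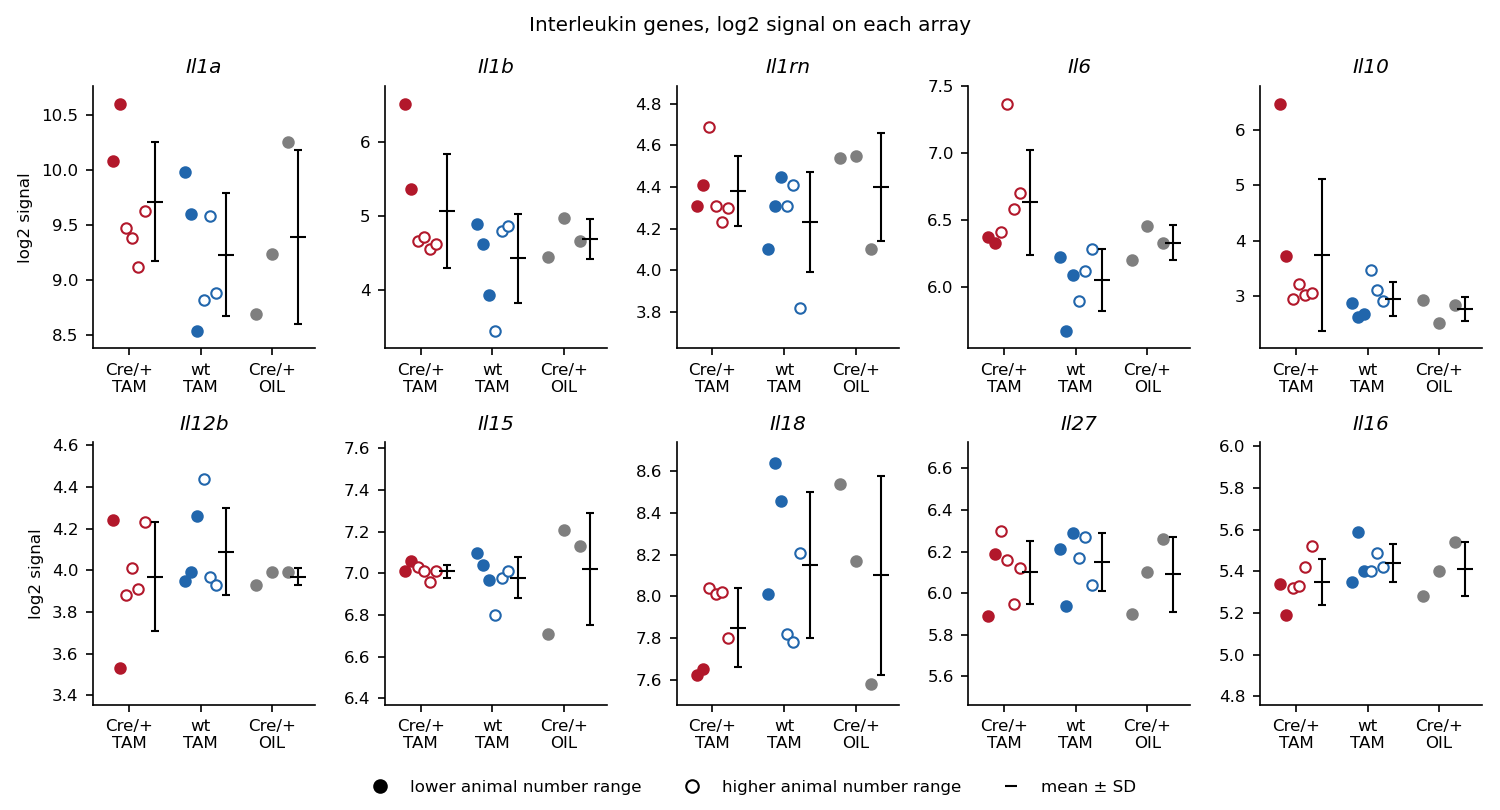
Log2 signal of each interleukin gene (y axis, its own scale per gene) on each array of Cre/+ TAM, wt TAM and Cre/+ OIL, with the mean ± SD beside the points. Filled points are arrays of the lower and open points arrays of the higher animal number range. *Il6* shows no overlap of Cre/+ TAM with wt TAM, and *Il10* shows 1 Cre/+ TAM array at 6.48.

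Between the control groups the log2 differences of wt TAM from Cre/+ OIL ran from -0.28 (*Il6*) to 0.18 (*Il10*), and every limma adjusted p was 0.949 or higher. The comparisons with Cre/+ TAM share its arrays, and those with Cre/+ OIL rest on 3 arrays, all of the lower animal number range. Cre/+ OIL replicates 1 and 2 also have "neg" in their titles, so that differences from Cre/+ OIL are confounded in part with that mark.

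**Figure D2:**
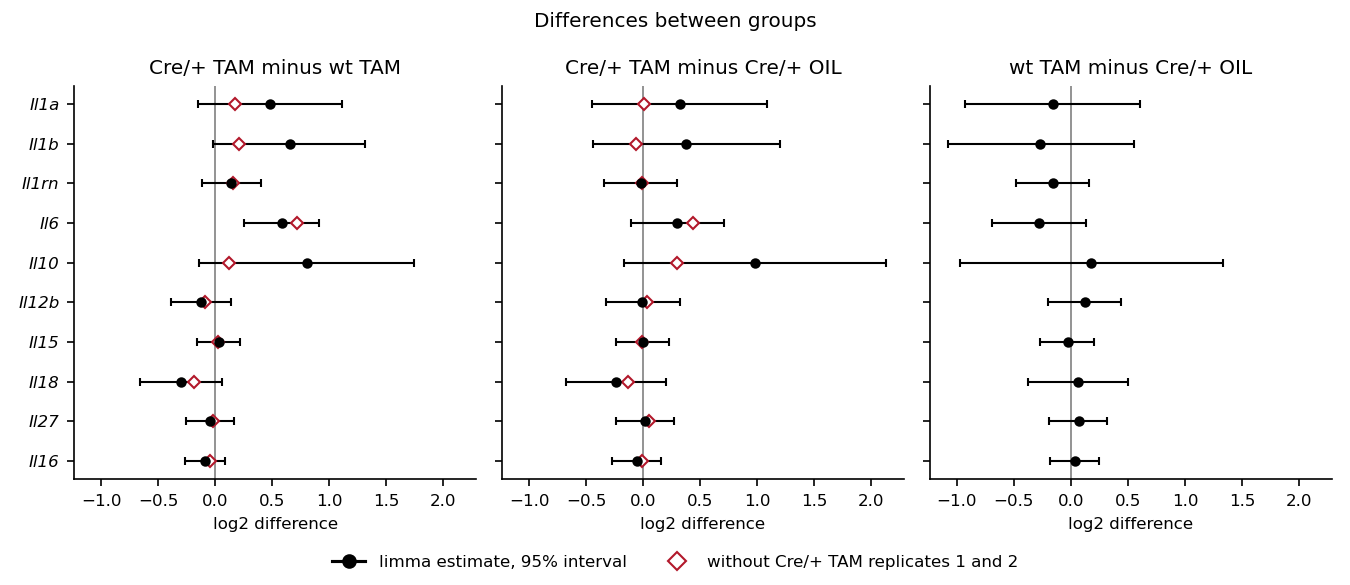
Log2 difference of each interleukin gene (x axis) for Cre/+ TAM minus wt TAM, Cre/+ TAM minus Cre/+ OIL and wt TAM minus Cre/+ OIL, as black points with 95% limma intervals, and as open diamonds without Cre/+ TAM replicates 1 and 2. Only the interval of *Il6* against wt TAM, 0.25 to 0.91, leaves out 0, and the diamonds of *Il1a*, *Il1b* and *Il10* lie nearer to 0 than the points.

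The sorted cells carried microglia markers on every array, with list means between 9.88 and 10.39 in Cre/+ TAM, 10.08 and 10.45 in wt TAM and 10.18 and 10.47 in Cre/+ OIL (10 genes). A list of 12 markers of border-associated macrophages averaged 7.03 in Cre/+ TAM replicate 1 and 5.56 in replicate 2, against 4.70 to 4.84 in the other 4 Cre/+ TAM arrays, 4.24 to 4.40 in wt TAM and 4.13 to 4.33 in Cre/+ OIL. Neutrophil markers (12 genes) averaged 5.62 in wt TAM replicate 2 and 6.12 in Cre/+ OIL replicate 3, against at most 4.52 on the other arrays. Over 55 marker genes of 6 further lists (monocytes, dendritic cells, T and NK cells, B cells, endothelial and mural cells, astrocytes) and 16 of neurons and oligodendrocytes, no gene was called in any comparison. A list of 16 interferon-stimulated genes had 9 members past an unadjusted limma p of 0.05, against 5.83% of all clusters. All 9 were higher in Cre/+ TAM than in wt TAM, and none was called. *Oas2* had the largest log2 difference, 1.54 (limma adjusted p = 0.361), which was 0.80 without Cre/+ TAM replicates 1 and 2. For Cre/+ TAM against Cre/+ OIL, 5 of the 16 were past an unadjusted limma p of 0.05, against 5.84% of all clusters. Pairs of arrays correlated at r between 0.96 and 0.988 over all clusters.

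The signals of *Il10* and *Il1b* went with the border-associated macrophage markers and with the interferon-stimulated genes, through Cre/+ TAM replicates 1 and 2. In Cre/+ TAM replicate 1 the macrophage markers *Mrc1*, *Pf4* and *Ms4a7* had log2 signals of 10.26, 10.09 and 9.82, and the microglia list mean was at its lowest, 9.88. These 3 genes have the largest differences of the list, and in Cre/+ TAM replicates 3 to 6 alone they still averaged 0.91, 1.74 and 2.13 above wt TAM on the log2 scale. The markers *Lyve1*, *Cbr2* and *Cd209f*, at 5.06, 4.46 and 3.04 in Cre/+ TAM replicate 1, did not exceed the wt TAM arrays, which reached 5.15, 4.51 and 3.49. *Cbr2* lay near and *Cd209f* below the array medians, 4.35 to 4.55, where low signals cannot be told from background. The markers *Cd163*, *Clec10a*, *Stab1*, *F13a1*, *Folr2* and *Clec4n* reached 6.99, 4.73, 9.70, 6.84, 5.57 and 7.83 in Cre/+ TAM. In wt TAM they reached at most 4.04, 2.24, 8.54, 4.33, 5.09 and 3.42. In Cre/+ TAM replicates 3 to 6 their log2 differences from wt TAM were 0.04, -0.05, 0.10, 0.27, 0.23 and 0.13. Over the 15 arrays Pearson's r with the list mean was 0.93 for *Il10* (permutation p = 0.00058, adjusted p = 0.0116 over 60 relations of the members with list means) and 0.79 for *Il1b* (permutation p = 0.00279, adjusted p = 0.0335). Spearman's rho was 0.65 for *Il10* (permutation p = 0.011, adjusted p = 0.134) and 0.40 for *Il1b* (permutation p = 0.141, adjusted p = 0.353), so that neither rank relation passed the adjustment. Without the 2 arrays farthest from the median of the list, r was 0.36 for *Il10* and 0.11 for *Il1b*, so that both relations rest on those arrays. Within the animal number ranges r was 0.97 and 0.93 over the 8 arrays of the lower and -0.27 and 0.15 over the 7 arrays of the higher range. With the mean of the interferon-stimulated genes, which was 6.06 and 5.55 in Cre/+ TAM replicates 1 and 2, r was 0.87 for *Il10* (permutation p = 0.00087, adjusted p = 0.013) and 0.73 for *Il1b* (permutation p = 0.00684, adjusted p = 0.0586). Without the 2 arrays farthest on that list these were 0.31 and 0.05. *Il27* correlated with the microglia list mean at r = 0.68 (permutation p = 0.00451, adjusted p = 0.0451) and rho = 0.59 (permutation p = 0.0244, adjusted p = 0.183), with r = 0.45 without the 2 arrays farthest on the list and r = 0.79 in the lower and 0.32 in the higher range. *Il6* in Cre/+ TAM replicates 1 and 2, at 6.37 and 6.33, was the lowest of its group, and its log2 difference from wt TAM was 0.72 without them. *Il1b* was not high in the arrays with neutrophil markers, at 4.62 in wt TAM replicate 2 and 4.66 in Cre/+ OIL replicate 3. The part of other cells in the *Il10* and *Il1b* signals was not tested.

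**Figure D3:**
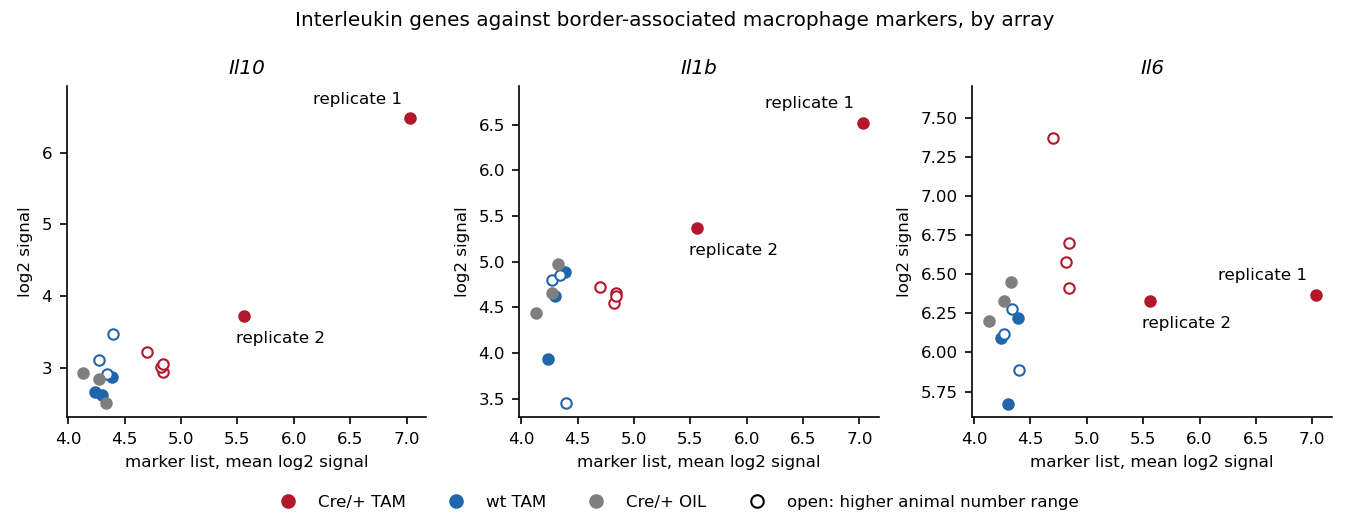
Log2 signal of *Il10*, *Il1b* and *Il6* (y axis) against the mean log2 signal of 12 border-associated macrophage markers (x axis) on each array, coloured by group. Cre/+ TAM replicate 1, at a list mean of 7.03, holds the highest *Il10* (6.48) and *Il1b* (6.52), whereas its *Il6* of 6.37 lies among the lower values of Cre/+ TAM.

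The titles number the animals in a lower range (Cre/+ TAM replicates 1 and 2, wt TAM replicates 1 to 3, all Cre/+ OIL) and a higher range (Cre/+ TAM replicates 3 to 6, wt TAM replicates 4 to 6), and both animals with the highest macrophage markers fall in the lower one. The log2 difference of *Il10* between Cre/+ TAM and wt TAM was 2.38 in the lower and -0.10 in the higher range, that of *Il1b* 1.47 and 0.26, and that of *Il1a* 0.97 and 0.31. For *Il18* it was -0.74 in the lower and 0.03 in the higher range, and for *Il6* 0.35 and 0.67. The higher range holds no Cre/+ OIL array, so that differences from Cre/+ OIL are confounded in part with the range. Cre/+ TAM replicates 4 to 6, the arrays with *Il6* above all Cre/+ OIL arrays, are of the higher range. In the lower range *Il6* was 6.37 and 6.33 in Cre/+ TAM and 6.20, 6.45 and 6.33 in Cre/+ OIL. The test of the difference between the ranges (limma interaction term) gave an unadjusted p of 0.00248 for *Il10*, 0.00899 for *Il18* and 0.0408 for *Il1b*, with adjusted p of 0.345, 0.547 and 0.795. At an unadjusted p under 0.05 such a difference was seen for 6.15% of all clusters, and 0.0585% were called. Without Cre/+ TAM replicate 2, which leaves replicate 1 as the only Cre/+ TAM array of the lower range, *Il10* was called (limma adjusted p = 1.42e-05), as were 182 clusters in all, against 19 with every array kept. Without replicate 1 it was not (limma adjusted p = 0.276).

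*Il1a* followed the immediate early genes, a class switched on within minutes of a stimulus that includes the AP-1 subunits *Fos* and *Jun*. The mean log2 signal of 12 such genes was 9.34, 9.50, 8.72, 8.54, 8.38 and 8.89 in Cre/+ TAM replicates 1 to 6 and 9.63, 9.02, 7.68, 8.48, 8.57 and 8.65 in wt TAM replicates 1 to 6. In Cre/+ OIL replicates 1 to 3 it was 7.70, 7.73 and 9.81. The arrays with the lowest means, Cre/+ OIL replicates 1 and 2 and wt TAM replicate 3, have "neg" as part of their titles, a mark left unexplained in the sources, and they had *Il1a* signals of 8.69, 9.24 and 8.54. The log2 difference of *Il1a* between Cre/+ TAM and Cre/+ OIL was 0.32. Without the arrays marked neg, which leaves replicate 3 as the only Cre/+ OIL array, it was -0.54. Over the 15 arrays *Il1a* and the immediate early mean correlated at Pearson's r = 0.87 (permutation p = 0.00006, adjusted p = 0.0018 over 60 relations) and Spearman's rho = 0.91 (permutation p = 0.00003). Without the 2 arrays farthest on the immediate early mean r was 0.84, without the arrays marked neg it was 0.87 over 12 arrays, and for deviations from the group means it was 0.90. Within the ranges r was 0.92 over the 8 arrays of the lower and 0.55 over the 7 arrays of the higher range. With the 4 heat shock genes of the list included, r was 0.86 over the 15 arrays and 0.20 in the higher range. Of these 4, *Hspa1b* had 9.59, 9.27 and 5.65 in Cre/+ OIL replicates 1 to 3, against at most 7.95 in Cre/+ TAM and 7.09 in wt TAM. Its log2 difference between Cre/+ TAM and Cre/+ OIL was -2.73 (limma adjusted p = 0.632), and that of *Hspa1a* was -1.69 (limma adjusted p = 0.776). Those of *Hspb1* and *Dnajb1* were -0.40 and 0.11. For *Il1b*, *Il15*, *Il10*, *Il27*, *Il16*, *Il6*, *Il12b* and *Il1rn*, r with the immediate early mean was 0.45, 0.42, 0.34, 0.13, 0.09, -0.02, -0.24 and -0.46. For *Il18* it was -0.62 (permutation p = 0.0148, adjusted p = 0.0929). The relations with lists and the split of this list were chosen after the values were seen. None of the 12 immediate early genes was past an unadjusted limma p of 0.05 between Cre/+ TAM and wt TAM.

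**Figure D4:**
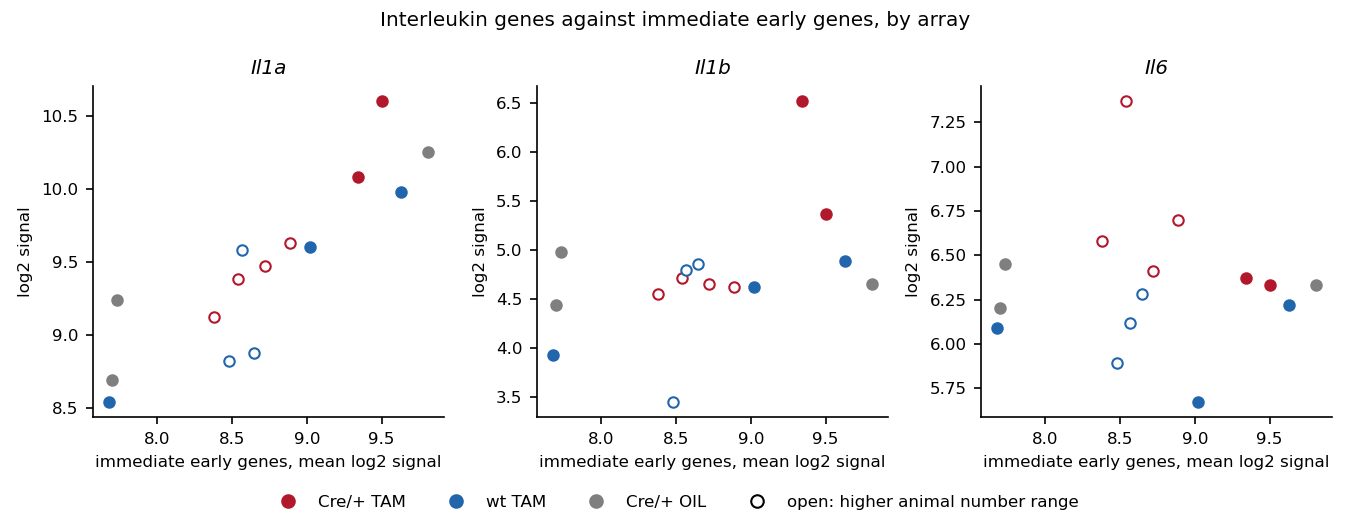
Log2 signal of *Il1a*, *Il1b* and *Il6* (y axis) against the mean log2 signal of 12 immediate early genes (x axis) on each array, coloured by group. *Il1a* is higher on arrays with a higher immediate early mean (r = 0.87), and *Il6* shows no such slope (r = -0.02).

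Among the members themselves, 45 pairs were correlated over the 15 arrays and none passed an adjusted p of 0.05. *Il1a* and *Il1b* had r = 0.64 (rho = 0.64, permutation p = 0.0081, adjusted p = 0.194) and *Il1a* and *Il18* r = -0.65 (rho = -0.68, permutation p = 0.00864, adjusted p = 0.194). For *Il1a* and *Il18* r was -0.82 in the lower and -0.43 in the higher range. *Il1b* and *Il10* had r = 0.71 but rho = 0.19, and r = -0.44 without Cre/+ TAM replicates 1 and 2.

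Of the 15442 genes at or above the median level, those whose signals were most like a member's over the 15 arrays were *H2-Q4* and *Neurl3* for *Il1a* (r = 0.92 for both), *Dse* and *Rbpsuh-rs3* for *Il1b* (0.91 and 0.89), and *Gm7589* and *Ptpn18* for *Il6* (0.88 and 0.85). They were *Dnase1l1* and *Mmp9* for *Il10* (0.96 for both), *Gm15354* and *Gm25966* for *Il18* (0.91 and 0.90), *Rad9a* and *2310026L22Rik* for *Il15* (0.88 and 0.86) and *Gm14193* and *LOC102637278* for *Il27* (0.86 for both). For *Il1rn* they were *9530051G07Rik* and *Gm23980* (0.76 and 0.72), for *Il12b* *Fgf17* and *A430089I19Rik* (0.82 for both) and for *Il16* *Gm24955* and *Gm6644* (0.84 and 0.82). Without Cre/+ TAM replicates 1 and 2 the r of *Il10* with *Dnase1l1* and *Mmp9* was 0.60 and 0.47, while that of *Il6* with *Gm7589* and *Ptpn18* was 0.89 and 0.85. *Mmp9* is also in the list of neutrophil markers. It reached 7.29 in Cre/+ TAM and at most 4.60 in wt TAM and 4.56 in Cre/+ OIL, the groups with the highest array means of that list. The r values given here are the highest of many and carry no test.

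Of 17 receptor genes of the members, none was called in any comparison. In Cre/+ TAM against wt TAM 2 were past an unadjusted limma p of 0.05, against 5.83% of all clusters, and both were higher. *Il2rg*, the common γ chain through which IL-15 signals, lay between 5.25 and 7.01 in Cre/+ TAM, 4.05 and 5.10 in wt TAM and 4.86 and 4.93 in Cre/+ OIL, so that Cre/+ TAM overlapped neither control group. Its log2 difference from wt TAM was 1.19 ± 0.27 (SE, limma adjusted p = 0.183), and 0.76 without Cre/+ TAM replicates 1 and 2. *Il10rb*, a receptor chain for IL-10, lay between 8.01 and 8.26 in Cre/+ TAM, above all wt TAM arrays (7.30 to 7.95) but not above all Cre/+ OIL arrays (7.75 to 8.24), with a log2 difference from wt TAM of 0.42 ± 0.11 (SE, limma adjusted p = 0.382). Of all clusters, 0.317% had all Cre/+ TAM arrays above all wt TAM arrays, and 1.44% had them above all Cre/+ OIL arrays. *Il15ra*, which presents IL-15, differed from Cre/+ OIL by 0.40 ± 0.16 on the log2 scale (SE, limma adjusted p = 0.803) and from wt TAM by 0.13. *Sigirr*, an inhibitory receptor of the family, was 0.32 ± 0.15 higher in wt TAM than in Cre/+ OIL (SE, limma adjusted p = 0.933). The receptor chains for IL-6, *Il6ra* and *Il6st*, differed between Cre/+ TAM and wt TAM by -0.09 and -0.16, the IL-1 receptor genes *Il1r1*, *Il1r2* and *Il1rap* by 0.11, 0.16 and 0.06, and *Il10ra* by 0.28. For *Il18r1* and *Il18rap* the log2 differences were -0.06 and 0.14, for *Il12rb1* and *Il12rb2* -0.14 and -0.10, for *Il2rb* 0.11, for *Il27ra* 0.02 and for *Cd4*, which binds IL-16, -0.20. The group means of *Sigirr*, *Il1r2*, *Il18r1*, *Il18rap*, *Il12rb1*, *Il2rb* and *Cd4* lay below the lowest array median, 4.35. Such signals cannot be told from background, so that these differences set no limit on a change in mRNA.

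Of 10 genes for partner chains and processing, none was called. In Cre/+ TAM against wt TAM 2 were past an unadjusted limma p of 0.05, against 5.83% of all clusters. *Ebi3*, the partner chain of IL-27p28, averaged 6.77 ± 0.34 in Cre/+ TAM and 6.33 ± 0.18 in wt TAM (SD, n = 6 each), a log2 difference of 0.44 (limma adjusted p = 0.572), while *Il27* differed by -0.05. *Il18bp*, which binds and neutralises IL-18, averaged 6.64 ± 0.26 in Cre/+ TAM and 6.33 ± 0.11 in wt TAM (SD, n = 6 each), a log2 difference of 0.31 (limma adjusted p = 0.822). The partner chains *Il12a* and *Il23a* differed by 0.03 and -0.19, with group means below the lowest array median, 4.35, where a signal cannot be told from background. The inflammasome genes *Nlrp3*, *Casp1*, *Pycard* and *Casp4* had log2 differences of 0.33, 0.13, 0.16 and 0.28, and *Gsdmd*, the pore-forming substrate, had -0.07.

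**Figure D5:**
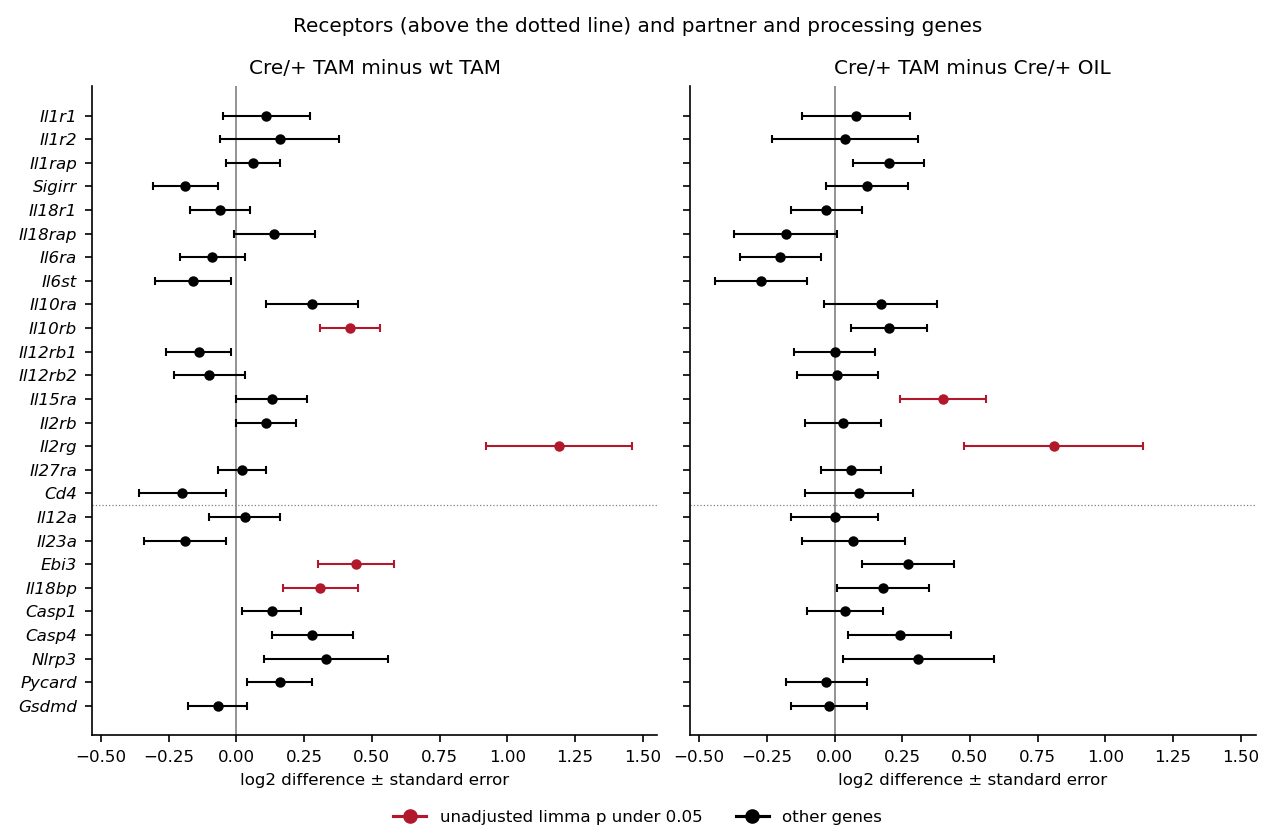
Log2 difference ± standard error (x axis) of 17 receptor genes, above the dotted line, and 9 partner and processing genes, below it, for Cre/+ TAM minus wt TAM and Cre/+ TAM minus Cre/+ OIL. Genes past an unadjusted limma p of 0.05 are red, and the largest difference is that of *Il2rg*, 1.19 against wt TAM.

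Of 21 signalling genes below these receptors, none was called. In Cre/+ TAM against wt TAM, 3 were past an unadjusted limma p of 0.05, all higher, against 5.83% of all clusters. Among them were *Stat5b* and *Irak4*, with log2 differences of 0.32 and 0.29 and limma adjusted p of 0.695 and 0.759. Against Cre/+ OIL 5.84% of all clusters were past an unadjusted limma p of 0.05. The signalling genes past it there were *Nfkbia*, the NF-κB inhibitor, at 0.56 and *Stat4* at -0.50 (limma adjusted p = 0.849 and 0.719). Of 28 other interleukin genes, 24 were measured, and their list mean lay between 3.37 and 3.58 in Cre/+ TAM, 3.33 and 3.70 in wt TAM and 3.37 and 3.52 in Cre/+ OIL. None of these was called, and the log2 differences between Cre/+ TAM and wt TAM ran from -0.21 to 0.21. *Il2* was past an unadjusted limma p of 0.05 for Cre/+ TAM against Cre/+ OIL, at -0.33 (adjusted p = 0.803), and *Il25* for wt TAM against Cre/+ OIL, at 0.43 (adjusted p = 0.933). The list means of the other interleukins and the group means of *Il2* (2.02 to 2.35) and *Stat4* (2.71 to 3.22) lay below the lowest array median, 4.35. There a signal cannot be told from background.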

How the data were processed

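RNA of sorted microglia from 15 mice was amplified and hybridised to Affymetrix Mouse Gene 2.0 ST arrays. The authors deposited RMA-normalised log2 signals per transcript cluster, and the software version and genome build of that step are not given in the sources used here. A second deposited table held the same values to within 0.005. Sheets with the authors' group averages, fold changes and p-values were not used. The files carry no detection call, so that low signals cannot be told from background, and the number of arrays limits the precision.

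All 32471 clusters with a gene symbol were fitted over the 15 arrays with limma 3.58.1 in R 4.3.3 (1 mean per group, moderated variances, Benjamini-Hochberg adjustment, threshold 0.05). No filter on low signals was applied. A further fit with the animal number range and its interaction with the group covered Cre/+ TAM and wt TAM. Members were also tested by exact permutation over arrays. Correlations across arrays used 100000 permutations. The fit was tested on simulated data for 32471 clusters, in which 31.0%, 83.6% and 100.0% of clusters changed by 0.5, 1 and 2 on the log2 scale were recovered for Cre/+ TAM against wt TAM. Recovery was 8.0%, 80.6% and 100.0% for Cre/+ TAM against Cre/+ OIL and 18.0%, 77.6% and 100.0% for wt TAM against Cre/+ OIL. The simulated noise was independent between clusters, and the changed clusters were drawn at random. These shares are thus averages over clusters. They do not hold for a member with a wide spread, such as *Il10* (standard error 0.45 for Cre/+ TAM against wt TAM). Each array is 1 mouse, replicates were numbered in accession order, and the numbers pair no arrays. The genes named are the 10 members, their receptor and partner chains, up to 3 genes of each other list and comparison with an unadjusted p under 0.05 (largest change first), and the 2 genes most like each member by r. *Fos* and *Jun* are named only as background and *Tgfbr2* as the targeted gene. *Lyve1*, *Cbr2* and *Cd209f*, and the remaining markers of that list, were named after their values were seen. The members and lists were chosen with earlier results of these data known. Promoter windows are from RefSeq (GRCm38.p6). Alternatives covered scaling, filters, variance model, weights, left-out arrays and animal number range. Values of some genes on the lists are not reported here, while counts cover the whole lists.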

Additional observations from a re-analysis of the deposited data

Results flagged for a closer look

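In the Cre/+ TAM group, the *Il6* log2 signal of replicate 4, 7.37, lay far from the other 5 arrays, of which the highest had 6.70. In the same group, the *Il10* log2 signal of replicate 1, 6.48, lay far from the other 5 arrays, of which the highest had 3.73. Dixon's test was made for 20 groups of 6 arrays, and chance gives about 1 in 20.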

How the results depend on the processing

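No member was called in any group comparison under any of the alternatives run with limma or with the methods' t-test, and the lowest adjusted p was 0.242, for *Il1b* in the lower animal number range alone. Singly, by the unadjusted exact permutation test, 1 member (*Il6*) was under 0.05 for Cre/+ TAM against wt TAM and 0 in the other comparisons. Leaving out each array in turn gave 0 to 1 members whose difference depended on the animal number range, the 1 being *Il10* without Cre/+ TAM replicate 2. The cause was not tested, but that fit has 1 Cre/+ TAM array in the lower range, and the lone array is assumed to vary like the others. Of 871 member values under alternatives, 53 changed sign, none of them called, and 19 moved by more than 1 SD. For Cre/+ TAM against wt TAM, the log2 difference ran from 0.35 to 0.72 for *Il6* (adjusted p 0.259 to 0.919), from 0.17 to 0.97 for *Il1a*, from 0.21 to 1.47 for *Il1b*, from -0.10 to 2.38 for *Il10* and from -0.74 to 0.03 for *Il18*. *Il1rn*, *Il10* and *Il12b* lay below the median signal and have no value under that filter, the higher range holds no Cre/+ OIL array, and each member has 1 cluster, so that no other cluster was compared. No paired analysis was possible because the labels give the groups no shared replicate numbers.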
